A study of Mus musculus with 47 samples.

Results

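The lungs of ragweed-challenged mice were compared between 72 h and 24 h. The comparison takes the arrays whose titles name ragweed (rwp) at 72 h or at 24 h with a replicate code, 1a or 1b, within each array table, and it holds 20 of the 47 arrays of the series, 10 at each time. These 20 arrays come from 4 lung samples, 2 at 24 h and 2 at 72 h, each hybridised to the first-version A array and to both versions of the B and C arrays of the Affymetrix murine U74 set. All ragweed animals had been given ragweed pollen protein together with alum, an adjuvant, on days 0 and 3, and ragweed pollen protein into the trachea on days 10 and 17, and the labels give them different intervals to sacrifice only. PBS lungs at the same times, 2 samples each, had PBS in place of the protein at both steps and serve as the background for time alone. The labels mention alum for the ragweed animals and not for the PBS animals. They name no strain, age or sex, and leave unsaid if the 1a and 1b samples came from different mice. The p-values below therefore reflect only how far these samples scatter, which can be technical scatter.

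After an allergen reaches a sensitized lung, the early response is dominated by innate signals: epithelial cells and macrophages release acute phase proteins and chemokines that draw in granulocytes and T helper 2 cells. In the days that follow, B cells mature into plasma cells that secrete antibody, and macrophages and dendritic cells clear debris and present antigen on MHC class II. Immunoglobulin messages, complement C1q, lysosomal enzymes and MHC genes are used as transcript markers of that later phase.

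Markers of the labelled tissue were bright in all 4 ragweed samples. Sftpc, the surfactant protein of alveolar type 2 cells, lay at intensities of 61163 and 57338 at 24 h and 61163 and 52066 at 72 h. Scgb1a1, the secretoglobin of airway club cells, lay at 71315 and 80239 at 24 h and at 71315 in both samples at 72 h. Replicate samples correlated across probe sets with r of 0.960 at 24 h and 0.957 at 72 h on the A array, 0.902 and 0.858 on version 2 B, and 0.781 and 0.862 on version 2 C. The ratio of the 3' to the 5' actin control probe set ran from 0.815 to 1.6 over the 10 arrays at 24 h. It ran from 0.704 to 1.39 over the 10 at 72 h, and these ranges, pooled over tables, overlapped. Within tables it was lower in both 72 h samples than in both 24 h samples on 2 of 5, A and version 2 C. The same ratio for Gapdh moved with time: it was lower in both 72 h samples than in both 24 h samples on all 5 tables, running from 1.03 to 1.44 at 24 h and from 0.777 to 1.21 at 72 h. The part of both ratios in the differences below was not tested. With so few arrays the precision was limited, and the standard error of a 72 h minus 24 h difference had a median on the log2 scale of 0.231 (A array), 0.325 (version 2 B) and 0.451 (version 2 C).

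Of 25250 tested probe sets, 77 passed an adjusted p of 0.05 between the times, which is 0.305%. Of these, 60 were higher at 72 h (0.238% of those tested) and 17 were lower (0.0673%), and 2680 had an unadjusted p under 0.05. PBS lungs gave 71 called probe sets between the same times, 0.281% of those tested. The A array supplied 62 of the 77, B supplied 9 and C supplied 6. The 4 ragweed samples alone, fitted on the deposited scale, gave 33 calls, 29 higher and 4 lower. The share of rises depended on the filter: with no filter on dim probe sets the calls were 82 higher and 70 lower. The count fell to 8 and 3 without sample 1a or 1b of 24 h, to 2 and 11 without sample 1a or 1b of 72 h, and to between 38 and 47 without 1 PBS sample. Of the genes named below, only Ighm (101870_at) and Igkv6-23 were called in every one of the alternative settings run. Every other called one that was still tested lost its call without sample 1a of 72 h. With 1 probe set standing for each of 12831 genes, 27 genes were called higher (0.21%) and 11 lower (0.0857%).

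The B and C arrays were read in both versions, so the same 4 lungs give a second reading of their calls. Across the 6764 probe sets tested on both versions of B, the ragweed time differences correlated with r of 0.005, and across 4239 on C with r of -0.005. The PBS time differences correlated at 0.143 and 0.051. Over the 677 and 424 probe sets of highest level, r was -0.016 and 0.018 for ragweed and 0.401 and 0.212 for PBS. The levels themselves correlated at 0.745 to 0.844 between versions. These correlations are across probe sets, which are not independent replicates, and the cause was not tested. The time labels of the B and C arrays were taken as given, and whether they are right was not tested. The low agreement between versions limits every B and C difference given here.

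The largest group of called probe sets carried immunoglobulin names. Immunoglobulins are the antibody proteins, built from heavy and light chains whose variable segments differ between B cell clones, and plasma cells make their messages in bulk. The annotation gives a single immunoglobulin gene to 63 probe sets on the 3 tables, of which 53 passed the filter on low values, and 18 of these 53 were called higher and 0 lower, against 0.238% of all probe sets called higher. A probe set that was dim at 24 h passed the filter only through the samples in which it was bright: 15 of the 53 lay at the floor in both 24 h samples. Among the 27 that lay above the floor in both 24 h samples, 9 were called higher. The median log2 difference of these 27 was 1.23 in ragweed lungs and 0.63 in PBS lungs, beside -0.009 and -0.001 over all genes. Another 11 probe sets are annotated to several genes that include an immunoglobulin, and 5 of these were called higher.

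Ighm, the heavy chain of IgM, had the largest difference of any named gene, on probe set 101870_at. Its intensity was at the floor of 292 in both 24 h samples and at 7292 and 7592 in the 72 h samples, while the PBS samples lay at 292 and 292 at 24 h and at 690 and 707 at 72 h. The ragweed rise was at least 25.5-fold (log2 difference 4.67 ± 0.21 SE, n = 2 per time, adjusted p = 0.00028). A second Ighm probe set, 93583_s_at, read 14150 and 13020 at 24 h and 37862 and 29833 at 72 h, a rise of 2.48-fold (log2 1.31 ± 0.12 SE, adjusted p = 0.00694). It rose about as much in PBS lungs, from 4240 and 4245 to 9835 and 10113 (log2 1.23, adjusted p = 0.00691 by limma). The 12 tested probe sets named Ighm did not agree in size: their log2 differences ran from -0.54 to 4.67, and 4 of them were called, all higher. What each of them detects beyond the annotated gene was not tested.

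Among light chains, 9 of 24 kappa variable probe sets were called higher. Igkv6-23, a kappa variable segment, read 11084 and 10783 at 24 h and 40262 and 48010 at 72 h, and rose 4.02-fold (log2 2.01 ± 0.12 SE, adjusted p = 0.0013). It also rose in PBS lungs, from 1865 and 2195 to 12420 and 11639 (log2 2.57). Igkv4-70 went from 1477 and 1741 to 5629 and 7006, a log2 rise of 1.97 ± 0.18 SE, against 0.75 in PBS lungs. All 3 probe sets of Igkv10-96 were called, with log2 rises of 1.83 to 2.12 in ragweed lungs, and in the PBS samples none of them read above 391. Of the 24 kappa variable probe sets 4 had differences below 0, and 0 of 2 lambda probe sets were called. Among heavy chains, 7 of 21 constant and 2 of 6 variable probe sets were called higher. Ighg3, an IgG constant region, had 3 of its 6 probe sets called, each at the floor in both 24 h samples. Probe set 93927_f_at of Ighg3 reached 1152 and 1099 at 72 h, at least 3.86-fold (log2 1.95 ± 0.18 SE, adjusted p = 0.00726). Igha, the heavy chain of IgA, read 729 and 579 at 24 h and 1838 and 1853 at 72 h, with a log2 difference of 1.51 ± 0.31 SE that did not pass (adjusted p = 0.133). That probe set differed by 1.02 in PBS lungs. A second Igha probe set, on version 2 B, differed by 0.48 in ragweed and 0.63 in PBS lungs.

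**Figure D1:**
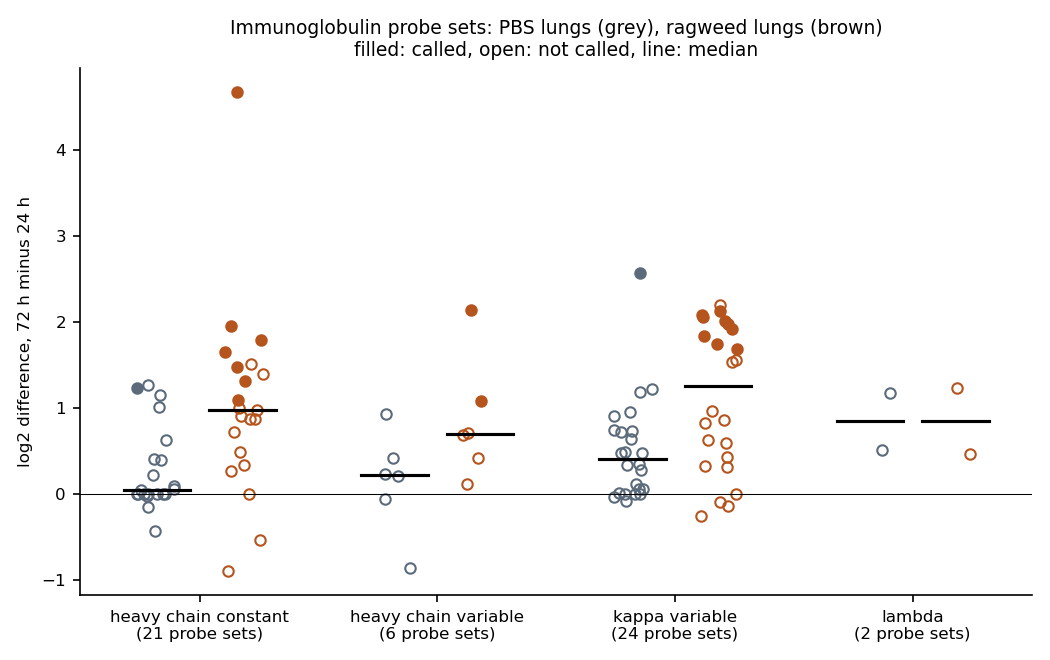
Log2 difference between 72 h and 24 h (vertical axis) of the 53 tested probe sets with a single immunoglobulin annotation, by class, in PBS lungs (grey) and ragweed lungs (brown). Filled points were called, open points were not, and lines are medians; 18 brown points and 2 grey points are filled, and 15 of the 53 were at the floor in both ragweed 24 h samples, which bears on the medians.

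Of the genes that plasma cells use to assemble and secrete antibody, some were called and others were not. Jchain, the joining chain that links IgM and IgA subunits, read 1241 and 1209 at 24 h and 3762 and 4184 at 72 h, and rose 3.24-fold (log2 1.70 ± 0.17 SE, adjusted p = 0.00809). It also rose in PBS lungs (log2 1.99), from the floor to 1139 and 1174. Mzb1, a chaperone of immunoglobulin folding, read 356 and 873 at 24 h and 3356 and 3467 at 72 h on version 2 B, a 6.12-fold rise (log2 2.61 ± 0.47 SE, adjusted p = 0.0498). The same lungs on the earlier B version gave 336 and 386 at 24 h and 4134 and 3374 at 72 h for Mzb1 (log2 3.37 ± 0.43 SE). Both array versions therefore put Mzb1 higher in both 72 h samples, whereas its PBS difference was 0.30. Xbp1, the transcription factor of the secretory programme, read 2832 and 2937 at 24 h and 3177 and 2901 at 72 h, and these values overlap. Fkbp11, a folding enzyme of secretory cells, had a log2 difference of -0.35 ± 0.23 SE. Of 14 measured genes of the list of plasma cell secretion genes and immunoglobulin chains, 3 were called higher and 0 lower (0.21% and 0.0857% over all genes). The median was 0.37, beside 0.26 in PBS lungs.

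Of the B cell markers, Cd22 was the only one called. Cd22, an inhibitory receptor of B cells, lay at the floor in both 24 h samples and at 783 and 826 at 72 h, at least 2.76-fold higher (log2 1.46 ± 0.20 SE, adjusted p = 0.0339). Pou2af1, the B cell coactivator of octamer-binding factors, read 337 and 338 at 24 h and 600 and 644 at 72 h (log2 0.88 ± 0.17 SE, adjusted p = 0.109). Of 17 measured B cell markers out of 20 listed, 1 was called higher and 0 lower (0.21% and 0.0857% over all genes). Of the 17, 10 had both 72 h samples above both 24 h samples, where 18.1% of all genes did. The summed intensity of the 17 was 10708 and 10723 at 24 h and 14811 and 14878 at 72 h in ragweed lungs. In PBS lungs the sum also rose, from 10214 and 9211 to 12223 and 11483. The median of the list was 0.44 in ragweed and 0.18 in PBS lungs. Over 12 measured T cell markers the sum in ragweed lungs was 6043 and 6234 at 24 h and 7127 and 6688 at 72 h, and 0 members were called. In whole lung, more cells of a type and more RNA per cell cannot be told apart. Of 4 measured thymocyte markers 0 were called and 2 lay at the floor in all 4 ragweed samples, among them Dntt, the terminal transferase of immature lymphocytes. The part of thymocytes was not tested.

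**Figure D2:**
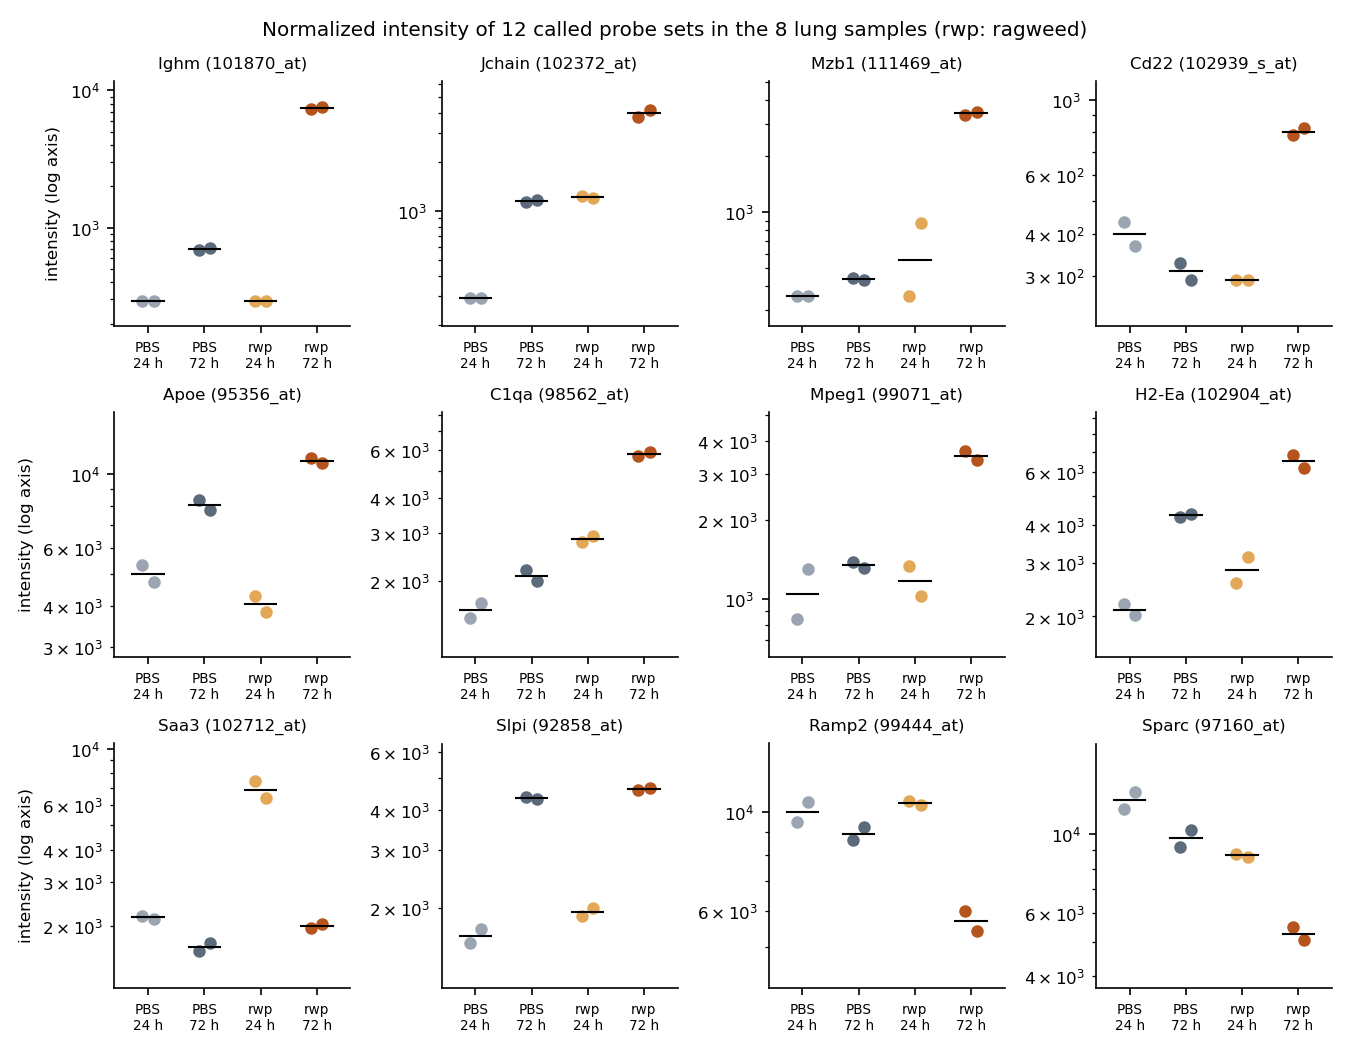
Normalized intensity (log axis) of 12 called probe sets in the 8 lung samples, with PBS groups in greys and ragweed groups (rwp) in orange and brown; points are samples and bars are geometric means. In each panel both ragweed samples of 72 h lie beyond both of 24 h. The PBS samples of the 2 times also lie apart in each panel, for Cd22 in the opposite direction. Of these PBS differences, those of Jchain, Slpi, Apoe and H2-Ea were called.

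MHC class II genes load and display peptides taken up by macrophages, dendritic cells and B cells, and 2 of the 13 listed were called higher at 72 h, where 0.21% of all genes were. H2-Ea, an alpha chain, read 2576 and 3148 at 24 h and 6819 and 6195 at 72 h, and rose 2.28-fold (log2 1.19 ± 0.12 SE, adjusted p = 0.00976). H2-Aa, the alpha chain of I-A, read 13020 and 12195 at 24 h and 20259 and 18442 at 72 h, a 1.53-fold rise (log2 0.62 ± 0.09 SE, adjusted p = 0.0498). The other H2-Aa probe sets on version 2 C had log2 differences of -0.29 and -0.51, neither called, and 1 on first-version C had 0.88 (unadjusted p = 0.0475 by limma). H2-Ab1, the partner chain of H2-Aa, went from 2211 and 2914 to 5323 and 5061, and was not called (log2 1.03 ± 0.16 SE, adjusted p = 0.05 after rounding, just above the threshold). All 13 listed genes of MHC class II presentation were measured: 0 were called lower, 10 had both 72 h samples above both 24 h samples (18.1% of all genes did), and the median was 0.46. The same median was 0.42 in PBS lungs. Ciita, the master coactivator of class II transcription, read 659 and 572 at 24 h and 621 and 495 at 72 h, and these values overlap.

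Class II promoters share a short element, the Y box, which binds the factor NF-Y beside the sites of the RFX complex. Upstream sequence of the 3 class II genes in which the letters CTGATTGG were found is shown because these genes moved unequally in the arrays. RefSeq promoter windows (GRCm38.p6, 250 bases before to 50 after the start of the gene) exist here for 7 of the H2 genes of the list, and 3 hold CTGATTGG on the given strand, where 4.1% of 32851 promoter windows hold it on either strand. Each line gives the 110 bases before the start site, 5′ to 3′ on the gene's strand, with the element in capitals.

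H2-Aa, chr17:34287824-34287933, minus strand: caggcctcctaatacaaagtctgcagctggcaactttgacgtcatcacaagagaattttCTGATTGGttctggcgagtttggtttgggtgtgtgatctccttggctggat

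H2-Eb1, chr17:34305757-34305866, plus strand: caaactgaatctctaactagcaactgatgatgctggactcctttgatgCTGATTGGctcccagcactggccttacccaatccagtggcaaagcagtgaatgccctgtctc

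H2-Oa, chr17:34092269-34092378, plus strand: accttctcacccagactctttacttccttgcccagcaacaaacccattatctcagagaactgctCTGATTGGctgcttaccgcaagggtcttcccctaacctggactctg

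The element starts at position -51 in H2-Aa, -62 in H2-Eb1 and -46 in H2-Oa, counted from the start site. H2-Eb1, a beta chain, read 4726 and 3104 at 24 h and 7065 and 7165 at 72 h (log2 0.89 ± 0.24 SE, adjusted p = 0.234). H2-Oa, a chain of the class II-like molecule H2-O that B cells express, read 445 and 463 at 24 h and 404 and 563 at 72 h (log2 0.07 ± 0.21 SE). The windows of the 4 others hold no CTGATTGG, which says only that these letters are not there.

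MHC class I genes, which present peptides from inside the cell, gave 0 calls among 13 measured, with a median of 0.35 in both ragweed and PBS lungs. H2-D1, a class I heavy chain, was called on probe set 97541_f_at, which went from 4200 and 4380 to 6590 and 7090 (log2 0.67 ± 0.09 SE, adjusted p = 0.0362). Its other probe sets differed by 0.02 and 0.15, so the probe sets of this gene disagree. Signals of related class I genes cannot be told apart on such probe sets.

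Macrophage and complement genes were also among the called genes that rose. Apoe, the lipid carrier that tissue macrophages secrete, read 4285 and 3840 at 24 h and 11175 and 10783 at 72 h, and rose 2.71-fold (log2 1.44 ± 0.10 SE, adjusted p = 0.00286). Its PBS difference was 0.69 and was called as well (adjusted p = 0.0449). Other Apoe probe sets, on the C arrays, differed by -0.12 on version 2 and by 0.28 and -1.30 on the first version, and none of these was called. Mpeg1, a pore-forming protein of macrophages, went from 1332 and 1025 to 3665 and 3372, a 3.01-fold rise (log2 1.59 ± 0.23 SE, adjusted p = 0.0399). C1qa, which encodes the A chain of complement C1q, went from 2765 and 2926 to 5683 and 5867, a 2.03-fold rise (log2 1.02 ± 0.11 SE, adjusted p = 0.0136). C1qb, its partner chain, had a difference as large with a wider error (log2 1.04 ± 0.33 SE, adjusted p = 0.303), and C1qc had 0.33 ± 0.14 SE. Cd52, a small surface glycoprotein of lymphocytes and monocytes, went from 2033 and 1731 to 4442 and 4266 (log2 1.21 ± 0.18 SE, adjusted p = 0.0498).

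Mmp12, the macrophage elastase, was called on probe set 95338_s_at alone, which went from 655 and 487 to 1737 and 2080 (log2 1.75 ± 0.26 SE, adjusted p = 0.048). The brighter probe set 95339_r_at of Mmp12 went from 3145 and 3789 to 4402 and 7024 (log2 0.69 ± 0.23 SE, adjusted p = 0.332), in the same direction. In PBS lungs the log2 difference of 95339_r_at was larger, 1.62, while that of 95338_s_at was 0. Among 14 measured macrophage and monocyte markers 1 was called higher and 0 lower (0.21% and 0.0857% over all genes), with a median of 0.23. Their summed intensity was 93576 and 81196 at 24 h and 119737 and 127706 at 72 h, while the PBS samples ran from 125358 to 142134 over both times. Most of that rise came from Lyz1, a lysozyme, read on version 2 C at 52271 and 39053 and then 73019 and 73379 (adjusted p = 0.309 by limma), and without Lyz1 the sums were 41305 and 42143 at 24 h and 46718 and 54327 at 72 h. Csf1r, the receptor that sustains macrophages, read 1429 and 1386 at 24 h and 2602 and 2305 at 72 h (log2 0.80 ± 0.15 SE, adjusted p = 0.107). Ctss, the cathepsin that trims the class II invariant chain, read 9608 and 9706 at 24 h and 13846 and 15034 at 72 h (log2 0.58 ± 0.09 SE, adjusted p = 0.0611). Of 19 measured lysosomal enzymes 0 were called, and 8 had both 72 h samples above both 24 h samples while 5 had both below, against 18.1% and 19.9% of all genes.

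Saa3 fell most among the named genes on the A array. It encodes an acute phase protein of macrophages and epithelium. Its intensity was 7462 and 6376 at 24 h and 1971 and 2053 at 72 h, a 3.43-fold fall (log2 -1.78 ± 0.12 SE, adjusted p = 0.0022). PBS samples read 2207 and 2148 at 24 h and 1603 and 1720 at 72 h, so the ragweed level at 72 h lay between the PBS levels. The call held in 19 of 20 alternative settings and was lost without sample 1a of 72 h (adjusted p = 0.0681 by limma). The difference between the ragweed and the PBS time difference was -1.39 and missed the threshold (adjusted p = 0.0614). Its promoter is shown because C/EBP factors, which drive acute phase genes, bind letters of the kind TTATGCAA. These letters start at position -99 from the start site of the RefSeq window (GRCm38.p6) and are found on either strand in 0.743% of promoter windows. They were also searched for in the H2 genes above and in other called genes, Slpi, Apoe and C1qa among them. Of the genes searched that have a window, only Saa3 held them.

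Saa3, chr7:46715677-46715786, minus strand: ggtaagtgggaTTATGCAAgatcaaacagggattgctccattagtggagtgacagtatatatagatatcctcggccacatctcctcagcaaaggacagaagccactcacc

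Slpi, a secreted inhibitor of neutrophil elastase, moved the other way. It read 1882 and 2001 at 24 h and 4591 and 4652 at 72 h, a 2.38-fold rise (log2 1.25 ± 0.10 SE, adjusted p = 0.00543), and it also rose in PBS lungs (log2 1.41). Serpina3n, an acute phase protease inhibitor, had a log2 difference of -0.93 ± 0.19 SE (adjusted p = 0.136). Hp, haptoglobin, had one of 0.53 ± 0.11 SE (adjusted p = 0.143). Of 12 measured acute phase, antimicrobial and protease inhibitor genes, 1 was called higher and 1 lower (0.21% and 0.0857% over all genes).

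The genes usually taken as marks of the type 2 response were not called between the times. Chil3, the chitinase-like protein of alternatively activated macrophages, read 43673 and 49622 at 24 h and 52066 and 50946 at 72 h, a log2 difference of 0.15 ± 0.12 SE with a 95% interval from -0.14 to 0.43. Retnla, another such marker, read 9601 and 7199 at 24 h and 11151 and 8040 at 72 h, and these values overlap. Muc5b, a gel-forming mucin, read 14885 and 11757 at 24 h and 12138 and 11850 at 72 h (log2 -0.14 ± 0.18 SE). Ccl8, a chemokine that attracts T helper 2 cells, missed the threshold with 3897 and 5981 at 24 h and 15972 and 16832 at 72 h (log2 1.76 ± 0.28 SE, adjusted p = 0.0551). Ccl11, an eotaxin, read 1488 and 1830 at 24 h and 712 and 454 at 72 h (log2 -1.54 ± 0.30 SE, adjusted p = 0.112). Arg1, the arginine-hydrolysing enzyme of such macrophages, read 1717 and 1407 at 24 h and 718 and 609 at 72 h (log2 -1.23 ± 0.25 SE, adjusted p = 0.126). Ccl8, Ccl11 and Arg1 each had samples that did not overlap between the times, as did 18.1% of all genes on the higher and 19.9% on the lower side.

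Mucus and granulocyte genes gave 0 calls as well. Agr2, a mucin-folding enzyme, read 2148 and 1940 at 24 h and 1060 and 914 at 72 h (log2 -1.05 ± 0.26 SE, adjusted p = 0.196). Clca1, a goblet cell secreted protein, read 292 and 300 at 24 h and 470 and 698 at 72 h (log2 0.95 ± 0.22 SE, adjusted p = 0.182). Of 14 measured mucous and goblet cell genes, 4 had both 72 h samples higher and 5 had both lower, against 18.1% and 19.9% of all genes. S100a8 and S100a9, calcium-binding proteins of neutrophils, had log2 differences of -0.31 ± 0.20 SE and 0.19 ± 0.24 SE. Mki67, a marker of dividing cells, lay at the floor at 24 h and at 439 and 508 at 72 h, at least 1.62-fold higher without passing the threshold (adjusted p = 0.126). Il33, the epithelial alarmin, read 12849 and 13290 at 24 h and 7343 and 8398 at 72 h (log2 -0.73 ± 0.21 SE, adjusted p = 0.222).

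**Figure D3:**
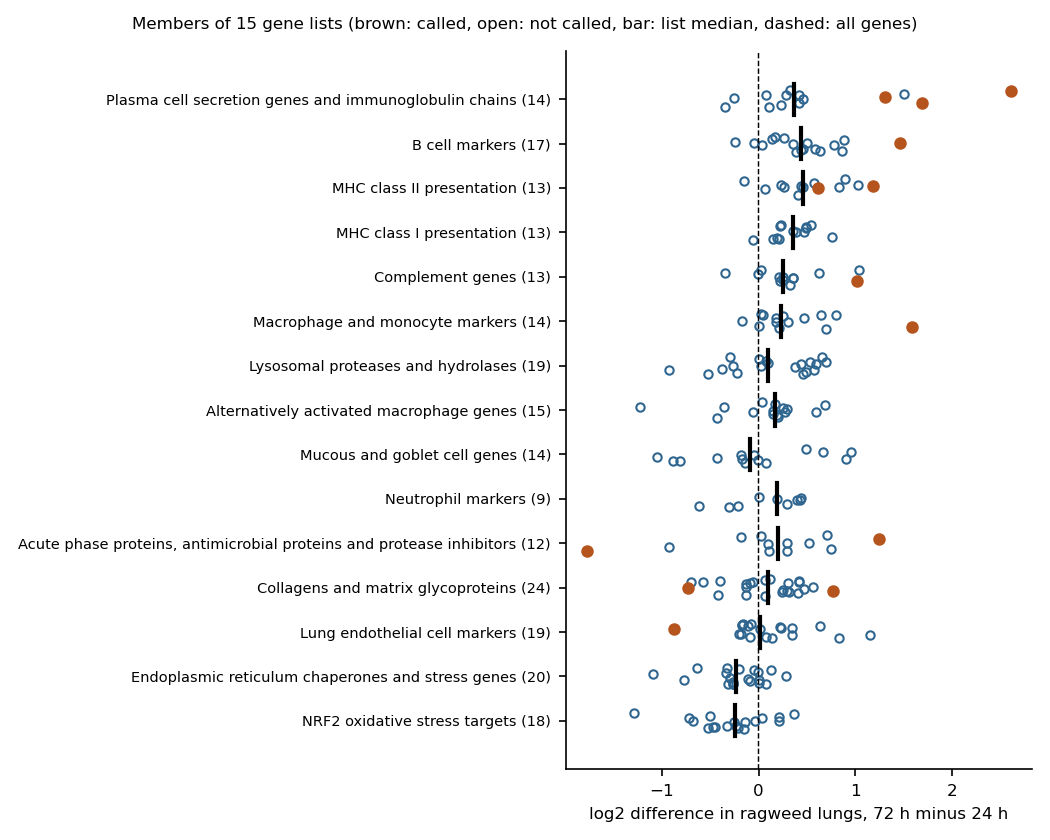
Log2 difference between 72 h and 24 h in ragweed lungs (horizontal axis) of the measured members of 15 gene lists, with the number measured in brackets; brown points were called and open points were not. Bars are list medians, which lie highest for MHC class II presentation at 0.46 and B cell markers at 0.44, and the dashed line is the median over all genes.

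Among the called genes that fell were genes of the vessel wall and matrix. Ramp2, the partner of the adrenomedullin receptor in endothelium, read 10585 and 10345 at 24 h and 6009 and 5421 at 72 h, a 1.83-fold fall (log2 -0.87 ± 0.10 SE, adjusted p = 0.0123). It was 1 of 19 measured endothelial markers and the only one called (0.0857% of all genes were called lower), and the list's median was 0.02. Sparc, a collagen-binding matrix protein, read 8796 and 8648 at 24 h and 5490 and 5045 at 72 h, a 1.66-fold fall (log2 -0.73 ± 0.10 SE, adjusted p = 0.0339). Eln, the elastin gene, went the other way, from 5323 and 5142 to 9608 and 8240 (log2 0.77 ± 0.11 SE, adjusted p = 0.0478), and its second probe set differed by 0.06. Spock2, a proteoglycan of the alveolar epithelium, fell on probe set 104375_at from 4380 and 4680 to 2319 and 1742 (log2 -1.17 ± 0.15 SE, adjusted p = 0.0237), while its other probe sets differed by 0.57 on A and 0.45 on version 2 C. Of 24 measured collagens and matrix glycoproteins 1 was called higher and 1 lower (0.21% and 0.0857% over all genes).

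Other called falls were in genes of broad expression. Ptms, parathymosin, fell 1.61-fold (log2 -0.68 ± 0.09 SE, adjusted p = 0.0358). S100a6, a calcium-binding protein, fell 1.56-fold (log2 -0.64 ± 0.09 SE, adjusted p = 0.0449), with a called fall of 0.89 in PBS lungs. Tmem176b, a membrane protein of myeloid and epithelial cells, fell 1.49-fold (log2 -0.58 ± 0.08 SE, adjusted p = 0.0339). Psme3, a proteasome activator subunit, read 1196 and 1426 at 24 h and 440 and 435 at 72 h, a 2.99-fold fall (log2 -1.58 ± 0.20 SE, adjusted p = 0.0237). Sod3, the extracellular superoxide dismutase, missed the threshold at -0.85 ± 0.13 SE (adjusted p = 0.0525). Gapdh, the glycolytic enzyme, was named after its values were seen, because its control probe sets are on every array: all 15 readings, 3 control probe sets on 5 tables, had both 72 h samples below both 24 h samples. Their log2 differences ran from -0.97 to -0.20 in ragweed lungs and from -0.33 to 0.27 in PBS lungs, on values scaled to 1 trimmed mean.

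Other called genes that rose were Dusp1, a phosphatase of the immediate early response, and Sat1, an enzyme of polyamine breakdown. Dusp1 read 4121 and 3883 at 24 h and 8031 and 8565 at 72 h (log2 1.05 ± 0.13 SE, adjusted p = 0.0219), and the PBS samples ran from 5665 to 7339 over both times. A second Dusp1 probe set on C differed by -0.62 and was not called. Sat1 read 2258 and 2125 at 24 h and 5045 and 4063 at 72 h (log2 1.05 ± 0.14 SE, adjusted p = 0.0344). Rpl10a, a ribosomal protein, rose 1.46-fold (log2 0.55 ± 0.08 SE, adjusted p = 0.0418). It was the only one called of 19 measured ribosomal proteins, whose median was 0.00 (0.21% of all genes were called higher). Adck1 is the annotated gene of probe set 102154_f_at, which went from 299 and 328 to 1446 and 1312 (log2 2.14 ± 0.22 SE, adjusted p = 0.00992). Its other probe sets differed by 1.10 and 1.38 on A and by -0.41 on B, and were not called.

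Lists of stress genes leaned lower with 0 calls. Of 18 measured NRF2 oxidative stress targets 12 had both 72 h samples below both 24 h samples, where 19.9% of all genes did, and the median was -0.24. In PBS lungs the median of the same list was -0.58. Slc7a11, the cystine transporter, read 972 and 781 at 24 h and was at the floor of 356 at 72 h (log2 -1.29 ± 0.39 SE, adjusted p = 0.246). Of 20 measured endoplasmic reticulum chaperones and stress genes 9 had both 72 h samples lower, with a median of -0.23, against -0.56 in PBS lungs. Ero1a, the oxidase of protein folding, read 2181 and 2284 at 24 h and 1263 and 1353 at 72 h (log2 -0.77 ± 0.12 SE, adjusted p = 0.0606).

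For the 15 probe sets called on version 2 B and C, the first version gave a second reading where it could: 9 were tested on the first version, and 5 of these had the same sign there. Over all 11003 probe sets tested on both versions, 48.72% had the same sign, so 5 of 9 is near that share. Mzb1 and the unnamed C probe set 133672_at were higher in both readings, the latter by 2.74 ± 0.42 SE on version 2 and 2.69 ± 0.45 SE on the first version. Cpm, a carboxypeptidase of macrophages and alveolar epithelium, rose from 1847 and 1977 to 4212 and 5134 on version 2 (log2 1.28 ± 0.18 SE, adjusted p = 0.0164) and differed by 0.74 ± 0.22 SE on the first. Another Cpm probe set on version 2 B, 113219_at, differed by 0.06 and was not called. Rab22a, a vesicle trafficking GTPase, differed by -1.67 on version 2 and -1.01 on the first version, where its samples overlap, and 4 other probe sets of it differed by -0.41, -0.40, 0.30 and 0.77. Btbd1 differed by -1.08 and -0.32, and by 0.27 on both of its A probe sets. Sec14l4, Lctl and Prelp changed sign: they had log2 differences of -1.64, 2.24 and 1.77 on version 2 and of 0.57, -0.48 and -0.12 on the first. The unnamed C probe set 135664_at did so too, with 2.54 and -0.22. Vasn, Fam25c, Krt13, Abhd11, Tmem225 and the unnamed 168737_r_at were called on version 2 probe sets with no tested counterpart on the first version, so their calls have no second reading. Other version 2 probe sets of Abhd11 differed by 0.43 and -0.27, against 1.96 on the called one. The other version 2 probe set of Prelp differed by -0.49, against 1.77 on the called one.

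**Figure D4:**
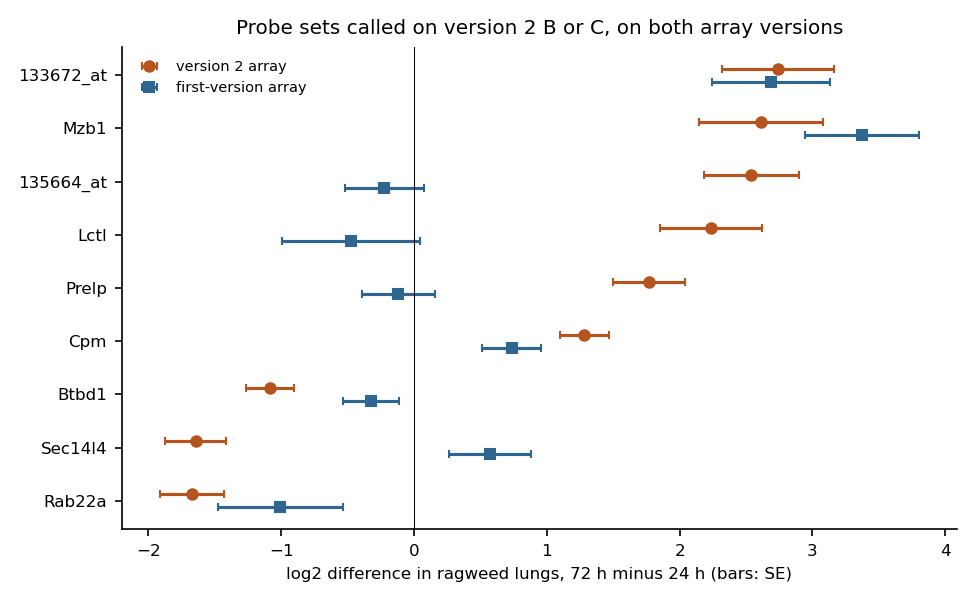
Log2 difference between 72 h and 24 h in ragweed lungs (horizontal axis, bars SE) of the 9 probe sets called on version 2 B or C (circles) that were also tested on the first-version array (squares). Mzb1, 133672_at and Cpm are higher on both, and the squares of Sec14l4, Lctl and Prelp lie on the other side of 0.

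The time difference was then compared between ragweed and PBS lungs. Of the 77 called probe sets, 11 were also called in PBS lungs in the same direction, among them Jchain, Slpi, Apoe, H2-Ea, Igkv6-23 and S100a6, and 2 in the opposite direction. A test of the difference between the ragweed and the PBS time difference called 9 probe sets, 0.0356% of those tested, with 1857 at an unadjusted p under 0.05. Of the 77, 3 were called in that test: Ighm on 101870_at, Krt13 and Fam25c. For the others, a time difference particular to ragweed was therefore not shown.

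**Figure D5:**
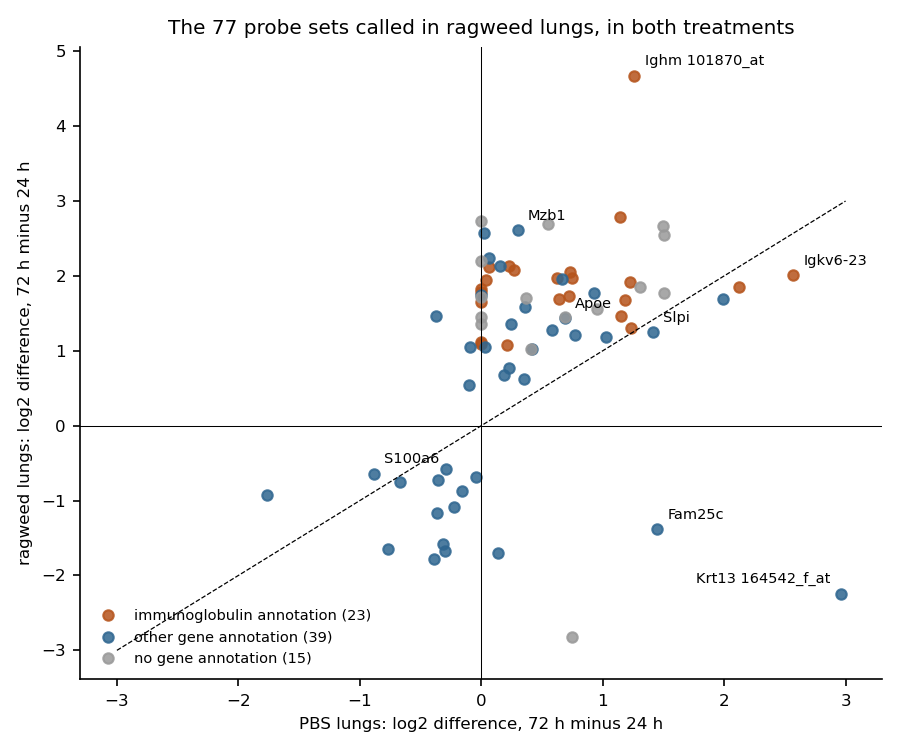
Log2 difference between 72 h and 24 h of the 77 called probe sets in PBS lungs (horizontal axis) and ragweed lungs (vertical axis), coloured by annotation; the dashed line marks equal differences. Slpi and S100a6 lie close to that line, Ighm 101870_at far above it, and Krt13 and Fam25c on opposite sides of 0.

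Ighm 101870_at rose by 3.41 more in ragweed than in PBS lungs on the log2 scale (adjusted p = 0.00868). For the 8 others the time difference, not the level, was lower in ragweed than in PBS lungs, and each of them rose in PBS lungs. Cyp2f2, a club cell cytochrome, read 10904 and 10155 at 24 h and 12420 and 12024 at 72 h in ragweed lungs. Its PBS samples went from 6351 and 7065 to 21306 and 21531. Krt4, a keratin of stratified epithelium, read 8497 and 9479 at 24 h and 9924 and 8073 at 72 h in ragweed lungs, and went from 8121 and 6703 to 24103 and 25342 in PBS lungs. Acta1, skeletal muscle actin, read 6182 and 7559 at 24 h and 5191 and 5323 at 72 h in ragweed lungs, and went from 2406 and 2003 to 8395 in both PBS samples. Fam25c read 3603 and 3715 at 24 h and 1318 and 1501 at 72 h in ragweed lungs, and its PBS samples went from 1637 and 2016 to 5729 and 4281. Krt13, another stratified keratin, fell on 164542_f_at from 1915 and 1485 to the floor in ragweed lungs, at least 4.73-fold, and rose from the floor to 2670 and 2879 in PBS lungs, whereas its other probe set differed by 0.42 in ragweed lungs.

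Markers of other tissues moved between the times as well. The summed intensity of 13 measured skeletal muscle genes was 20519 and 21673 at 24 h and 19083 and 16551 at 72 h in ragweed lungs, and 13888 and 11324 and then 25783 and 26401 in PBS lungs. The median difference of that list was -0.23 in ragweed and 1.02 in PBS lungs. Fat genes summed to 18118 and 22615 at 24 h and 27994 and 29081 at 72 h in ragweed lungs, and 6 of 11 had both 72 h samples higher (median 0.38, PBS 0.65, 0 called). Heart muscle genes summed to 13777 and 15824 and then 18145 and 17263, and 8 of 15 had both 72 h samples higher (median 0.26, PBS 0.57, 0 called). Over all genes, 18.1% had both 72 h samples higher in ragweed lungs. In PBS lungs the fat sums ran from 18394 to 21104 at 24 h and from 26814 to 29595 at 72 h, and the heart sums from 16598 to 17076 and from 26136 to 28093. The part of these tissues in the called differences was not tested.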

How the data were processed

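The deposited values are linear intensity, 1 per probe set and array, and what software the authors made them with is not given in these sources. The 20 ragweed arrays had trimmed means of 800 to 800.4, per the deposited values. An additional ragweed 24 h array without a replicate code was left out: it equals 1a divided by a constant ratio of 2.6272. First-version tables (A, and B and C for the second reading) were scaled to a mean of 800, trimmed by 2% at each end, and quantile normalized on the log2 scale; for version 2 B and C the deposited scale was retained. On A, only probe sets whose IDs are also on version 2 A entered. Values below the 40th percentile of a table (291.6 on A, 356.4 on B, 244.7 on C) were raised to it, so a group at this floor gives a lower bound, written "at least". Probe sets above it on at least 2 arrays were tested in limma 3.58.1 (R 4.3.3), fitting 1 mean for each of 4 groups, with a trend in eBayes, and with Benjamini-Hochberg over A, B and C together at 0.05. Errors marked SE are standard errors of the log2 difference. The code was tested on simulated data.

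Each gene was represented by 1 probe set of single symbol, A before B before C, then the brightest. Of 25250 tested probe sets 20323 have 1 symbol, 503 several and 4424 none. Genes were named by rule: the 12 largest rises and falls among called, non-overlapping genes (places left went to the smallest unadjusted p), the 8 largest differences from PBS, up to 4 members of each of 55 lists (called first, then smallest p), and a fixed set. Genes outside the rule, and further probe sets of named genes, were chosen after their values were seen. The members and lists were chosen with earlier results of these data known. Sequences are from RefSeq promoters; both strands were searched. Samples were not treated as paired by the numbers 1a and 1b: their 1a minus 1b differences correlated between groups at -0.079 to 0.044. Single differences carry array noise, so this check cannot settle whether the codes mark a shared batch.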

Additional observations from a re-analysis of the deposited data

Results flagged for a closer look

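The following 9 probe sets were singled out because a test of the difference itself gave a time difference in ragweed lungs that departed from that in PBS lungs. The values are log2 differences, ragweed 72 h minus 24 h less PBS 72 h minus 24 h, from limma with Benjamini-Hochberg adjustment over all probe sets. Probe set 164542_f_at of Krt13 had -5.20, 101024_i_at had -4.52 and 101025_f_at had -3.31, the latter 2 being annotated to several genes. Fam25c (162671_f_at) had -2.83, Acta1 (100381_at) -2.31, probe set 93028_at, annotated to several genes, -2.28, Krt4 (100421_at) -1.75 and Cyp2f2 (100069_at) -1.46. Ighm (101870_at) had 3.41 and was the only one whose time difference was higher in ragweed than in PBS lungs. Without either PBS 72 h sample 0 probe sets passed this test, with 1691 and 1695 at an unadjusted p under 0.05, and without any 1 ragweed sample 3 passed. With 2 samples in a group no sample could be tested as standing apart from the others.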

How the results depend on the processing

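The count of 77 called probe sets in ragweed lungs was 42 with the floor at the 20th percentile, 152 with no filter on dim probe sets (53.9% higher), 33 with the ragweed samples alone (87.9% of them higher, against 77.9%), 43 with eBayes without a trend and 127 with Benjamini-Hochberg within each table (66.9% higher). It ran from 2 to 47 when 1 of the 8 samples was left out. The count of 9 for the difference from PBS was 14 with the floor at the 60th percentile, 123 with no filter, 4 without a trend, 23 within each table and 0 to 10 with 1 sample left out. The PBS count of 71 was 118 with no filter, 32 without a trend and 2 to 39 with 1 sample left out. The 16 called list genes were 10 with the floor at the 20th percentile, 24 at the 60th, 8 with the ragweed samples alone, 4 without a trend, 27 within each table and 0 to 9 with 1 sample left out. The replicate block, which treats 1a and 1b as paired, a point the check could not settle, left 47 ragweed calls and 9 list genes. On the first-version B and C arrays 3 called genes changed sign: Lctl to -0.48, Sec14l4 to 0.57 and Prelp to -0.12. The cause of these shifts was not tested. The other settings moved these counts by less than 1.5 times, and the second-version comparison gave 5 of 9 in the same direction under each of 3 settings chosen after seeing the data. Over all probe sets tested on both versions, 48.72% had the same direction. With a sample left out, the lone sample of its group is assumed to vary like the other groups. Probe sets near the floor have bounds in place of folds, and 2 samples per group limit what could be called.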
